A study of Mus musculus with 7 samples.

Results

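Wnt ligands, their Frizzled receptors, the LRP5/6 co-receptors and the secreted proteins that block them were examined in prostates of Nkx3.1-/- mice that drank the antioxidant N-acetylcysteine (NAC) and of Nkx3.1-/- mice that drank plain water (vehicle). Members were taken by symbol: every Wnt gene, Fzd1 to Fzd10, Lrp5 and Lrp6, Sfrp1, 2, 4 and 5, Dkk1 to Dkk4, Wif1 and Axin2. This gave 41 of 18938 measured genes, made up of 19 ligands, 10 receptors, 2 co-receptors, 9 inhibitors and 1 feedback target. The NAC group held 4 arrays (replicates 1 to 4) and the vehicle group 3 arrays (replicates 1, 2 and 4), with 1 mouse to each array. NAC was given at 5 mM in the drinking water for 13 weeks after weaning, and all animals were 16 weeks old at dissection. Mice of both groups were homozygous for the Nkx3.1 null allele on a recombinant inbred B6/129 background, so no wild-type prostate stood in the comparison and the values do not bear on the loss of Nkx3.1 itself. Mice of a litter were housed by treatment, some in NAC and some in vehicle cages, and cage and treatment cannot be told apart. 1 further vehicle array failed the authors' quality control. The dissection protocol names the anterior lobe, whereas the tissue label names the whole prostate.

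Wnt ligands are secreted lipid-modified glycoproteins. In the canonical branch a ligand joins a Frizzled receptor to LRP5 or LRP6, the complex that marks beta-catenin for degradation is held at the membrane, and beta-catenin enters the nucleus to act with TCF/LEF factors. Non-canonical ligands such as Wnt5a act through Frizzled and ROR receptors without beta-catenin. In the prostate Wnt signals pass between the stroma and the epithelium and take part in bud formation, branching and regrowth of the gland.

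The deposited values were log2 RMA values from a whole-transcript array with 1 probe set for each member. Values of different genes come from different probes and, apart from a filter at the 40th percentile of the mean, were not compared in level. Array medians lay between 7.12 and 7.16, and pairs of arrays correlated at r = 0.995 to 0.998 across genes. In 7568 of 18938 genes and in 16 of 41 members at least 3 arrays held the same value to the last digit. The luminal marker Pbsn, the androgen-driven probasin of the rodent prostate, lay between 12.63 and 12.95 on every array. NAC replicate 3 stood apart: 23 genes were more than 1 log2 unit higher on it than on any other array, against 7, 6 and 2 on NAC replicates 4, 1 and 2 and 0 on each vehicle array, and none of the 23 was a member. On NAC replicate 3 the mean level of 5 adipocyte markers was 6.83, against 5.78 to 5.99 on the other NAC arrays and 5.89 to 5.98 on the vehicle arrays. Skeletal muscle markers averaged 7.82 on that array, against 6.98 to 7.07 on the other NAC arrays and 7.01 to 7.05 on the vehicle arrays, and lung epithelium markers averaged 8.74, against 5.68 to 5.75 on the other NAC arrays and 5.62 to 5.74 on the vehicle arrays. Their part in the results was not tested. Values without that array are given beside many of the results that it moved.

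No member passed the test with NAC. The smallest adjusted p among the 41 members was 0.827 (limma, Benjamini-Hochberg over 18938 genes), and the same value was the smallest over all genes, of which 0 (0%) passed an adjusted p of 0.05. At an unadjusted limma p under 0.05, Wnt2b and Fzd4 were higher with NAC and Wnt3 was lower. The mean levels of Wnt2b and Wnt3, but not of Fzd4, lay under the 40th percentile of all genes. The 2 higher members were 4.88% of the members, against 1.89% of all genes, and the 1 lower member was 2.44%, against 2.53% of all genes. In either direction 3 members were called (7.32%), against 4.41% of all genes, so the excess is a matter of 1 or 2 genes. In the signs alone, 18 members were higher and 23 lower with NAC, where 49.5% of all genes were higher. The members' median log2 fold change was -0.01 and ranged from -0.20 (Wnt5a) to 0.17 (Wnt2b). All NAC arrays lay above all vehicle arrays in 1 member, Wnt6, against 1.29% of all genes, and below them in 2 members, Wnt3 and Lrp6, against 2.18% of all genes. In whole tissue, fewer cells of a type and less RNA per cell cannot be told apart.

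**Figure D1:**
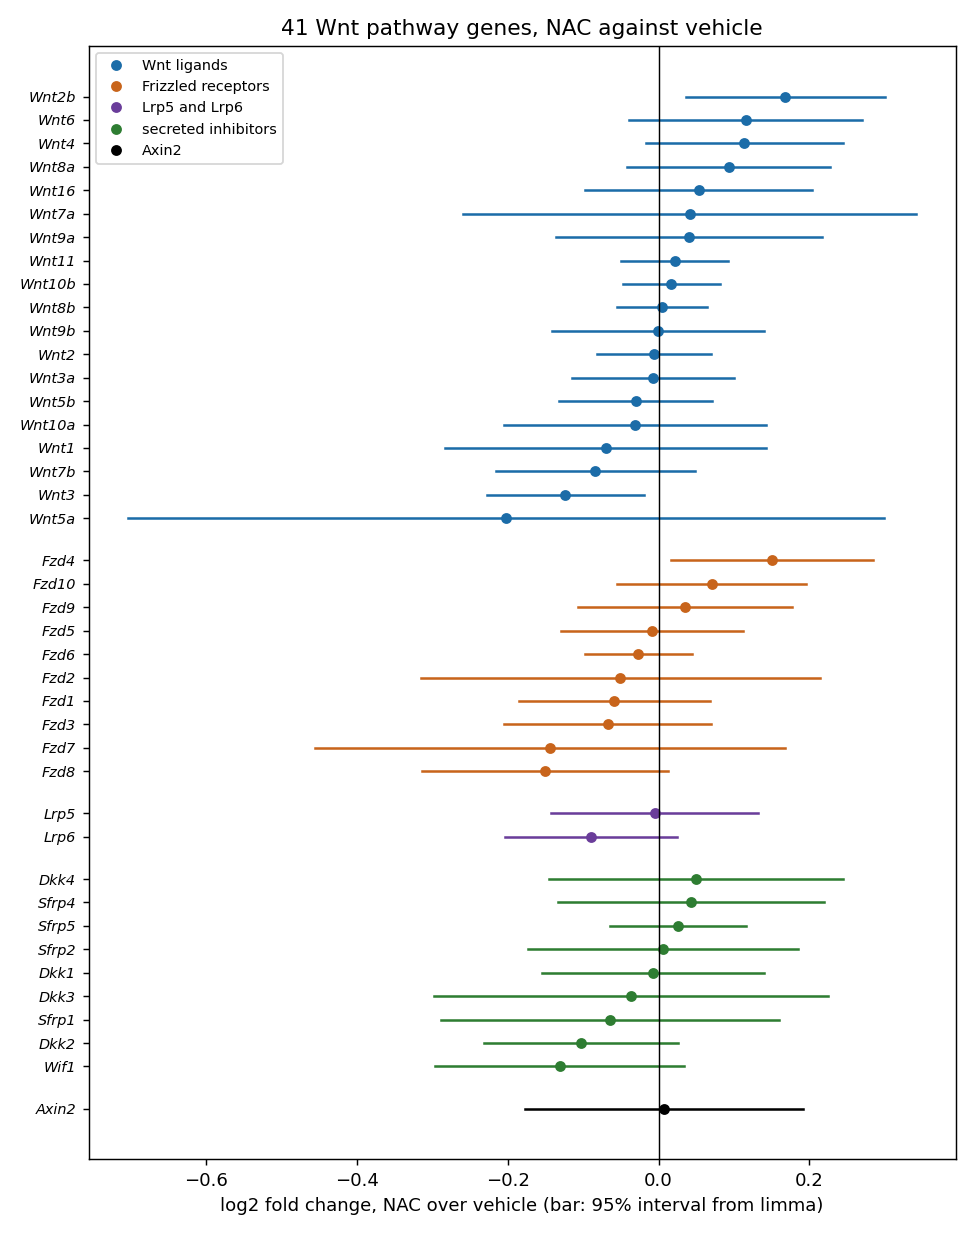
Log2 fold change of each of the 41 genes, NAC over vehicle, with the 95% interval from limma as a bar and the role groups in separate colors. The points lie between -0.20 and 0.17, and the intervals of Wnt2b, Fzd4 and Wnt3 are those that leave out 0.

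Among the 19 ligands, 10 stood higher with NAC and 9 stood lower, and the median of 0.00 on the log2 fold change scale turned negative, at 9 higher and 10 lower, after array medians were subtracted or the arrays were quantile normalized again. The split moved both ways when arrays were left out. It was 15 higher and 4 lower without vehicle replicate 1 and 13 higher and 6 lower without NAC replicate 1 or NAC replicate 2. Without NAC replicate 4 it was 8 higher and 11 lower, with a median of -0.005. Of the 10 ligands kept by the 40th percentile filter, 3 were higher and 7 lower. Wnt2b, a canonical ligand made mainly by mesenchyme, had log2 values of 6.57, 6.42, 6.54 and 6.46 on the NAC arrays, against 6.31, 6.26 and 6.42 on the vehicle arrays. Every vehicle value lay at or under the lowest NAC value: NAC replicate 2 and vehicle replicate 4 were equal. Wnt2b averaged 6.50 ± 0.07 with NAC (SD, n = 4) and 6.33 ± 0.08 with vehicle (SD, n = 3). The log2 fold change was 0.17 (SE 0.06, 95% interval 0.04 to 0.30), with a limma p of 0.0198 unadjusted and 0.827 adjusted. Without NAC replicate 3 it was 0.15, and the unadjusted limma p of Wnt2b was over 0.05 without vehicle replicate 1 (0.0595) or vehicle replicate 2 (0.073).

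Wnt3, a canonical ligand of epithelia and of the early embryo, had values of 5.57, 5.65, 5.51 and 5.65 on the NAC arrays, against 5.73, 5.73 and 5.70 on the vehicle arrays. The groups did not overlap, and the vehicle arrays lay within 0.03 of each other. Wnt3 averaged 5.60 ± 0.07 with NAC (SD, n = 4) and 5.72 ± 0.02 with vehicle (SD, n = 3). The log2 fold change of -0.12 (SE 0.04, 95% interval -0.23 to -0.02) had a limma p of 0.0261 unadjusted and 0.827 adjusted. The unadjusted p was 0.0593 without NAC replicate 1, 0.0664 without vehicle replicate 1 and 0.0687 without vehicle replicate 2. Without NAC replicate 3, which held the lowest Wnt3 value, the log2 fold change was -0.10.

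Wnt4, a ligand of reproductive tract and kidney development, had values of 7.69, 7.73, 7.65 and 7.66 on the NAC arrays, against 7.65, 7.61 and 7.44 on the vehicle arrays. The NAC arrays lay close together and vehicle replicate 4 was the low one. The log2 fold change of Wnt4 was 0.11 (SE 0.06, 95% interval -0.02 to 0.24), with an unadjusted limma p of 0.0785. It was 0.05 without vehicle replicate 4 and 0.16 without vehicle replicate 1, where the unadjusted limma p was 0.0315. With any other single array left out the unadjusted limma p of Wnt4 was over 0.05, reaching 0.219. Wnt6, an epithelial ligand, had values of 6.49, 6.46, 6.71 and 6.49 with NAC, against 6.44, 6.44 and 6.39 with vehicle. Every NAC array lay above every vehicle array, and NAC replicate 3 was the high one. The log2 fold change of Wnt6 was 0.12 (SE 0.07, limma p of 0.121 unadjusted and 0.827 adjusted), and without NAC replicate 3 it was 0.06. Wnt8a, known from the gastrulating embryo, had values of 6.25, 6.25, 6.29 and 6.42 with NAC, against 6.25, 6.25 and 6.13 with vehicle, so that the groups met at 6.25 (log2 fold change 0.09, SE 0.06, or 0.05 without NAC replicate 4 or vehicle replicate 4).

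Wnt5a, the non-canonical ligand of the prostate mesenchyme, varied most among the ligands. It had values of 7.92, 7.75, 7.92 and 7.79 on the NAC arrays, against 8.55, 7.56 and 8.04 on the vehicle arrays. The vehicle arrays held both the highest and the lowest value, and the NAC arrays lay between them. Wnt5a averaged 7.85 ± 0.09 with NAC (SD, n = 4) and 8.05 ± 0.49 with vehicle (SD, n = 3), a log2 fold change of -0.20 with an interval of -0.70 to 0.30. Without vehicle replicate 1 its log2 fold change was 0.05, and without vehicle replicate 2 it was -0.45. The direction for Wnt5a therefore rested on 1 vehicle animal.

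The other 13 ligands had log2 fold changes between -0.08 and 0.05. At the lower end Wnt7b, a canonical ligand of epithelia, had values of 7.62, 7.63, 7.43 and 7.60 with NAC, against 7.62, 7.67 and 7.67 with vehicle (log2 fold change -0.08). NAC replicate 3 was the low one, and without it the Wnt7b log2 fold change was -0.04. Wnt7a, the ligand of the female reproductive tract and limb, was chosen after its values were seen for its spread with NAC: 6.14, 5.94, 6.48 and 6.38, against 6.20, 6.17 and 6.21 with vehicle. The NAC arrays lay on both sides of the vehicle arrays and the interval of the Wnt7a log2 fold change was -0.26 to 0.34. Its log2 fold change was 0.04 over all arrays and -0.04 without NAC replicate 3.

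**Figure D2:**
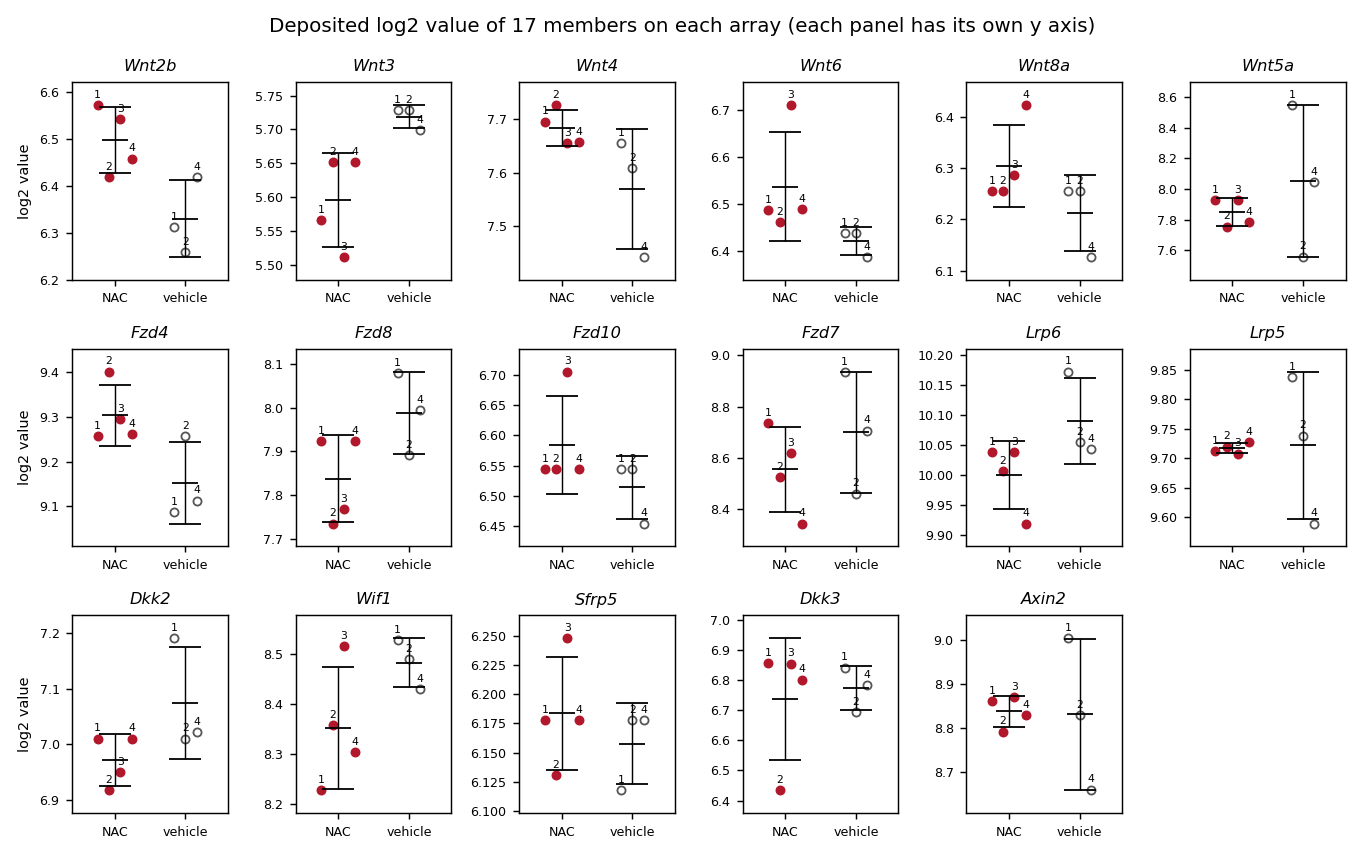
Log2 value of the described Wnt pathway genes on each array, NAC left and vehicle right in each panel, with points for mice and a line for the group mean with its SD. The groups are apart in Wnt3, Wnt6 and Lrp6 and overlap or touch in the others, and Wnt5a spans 7.56 to 8.55 on the vehicle arrays alone.

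Frizzled receptors are seven-pass membrane proteins whose outer cysteine-rich domain binds the ligand. With NAC 3 of 10 had a higher mean and 7 a lower one, the median being -0.04 on the log2 fold change scale, and the split was 5 and 5 with a median of -0.01 after the arrays were quantile normalized again. Fzd4, which also takes up Norrin with the help of the tetraspanin Tspan12 in vessels, had values of 9.26, 9.40, 9.29 and 9.26 on the NAC arrays, against 9.09, 9.26 and 9.11 on the vehicle arrays. NAC replicate 1 and vehicle replicate 2 were equal, and the other vehicle arrays lay under all NAC arrays. Fzd4 averaged 9.30 ± 0.07 with NAC (SD, n = 4) and 9.15 ± 0.09 with vehicle (SD, n = 3). The log2 fold change was 0.15 (SE 0.06, 95% interval 0.02 to 0.28), with a limma p of 0.033 unadjusted and 0.827 adjusted. The unadjusted p of Fzd4 was over 0.05 without NAC replicate 2 (0.0664), NAC replicate 3 (0.0591), vehicle replicate 1 (0.112) or vehicle replicate 4 (0.102).

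Fzd8 had values of 7.92, 7.73, 7.77 and 7.92 with NAC, against 8.08, 7.89 and 7.99 with vehicle, a log2 fold change of -0.15 (SE 0.07, limma p of 0.0656 unadjusted and 0.827 adjusted). Vehicle replicate 2 lay inside the NAC range. Fzd10 was at 6.54 on 5 arrays, with NAC replicate 3 at 6.71 and vehicle replicate 4 at 6.45. The Fzd10 log2 fold change of 0.07 was 0.03 without NAC replicate 3. Fzd7, a receptor of stem and progenitor cells in several epithelia, varied most among the receptors, with 8.74, 8.53, 8.62 and 8.34 with NAC, against 8.93, 8.46 and 8.71 with vehicle. The groups overlapped over most of their range, and the interval of the Fzd7 log2 fold change was -0.46 to 0.17. That log2 fold change was -0.14 over all arrays and -0.03 without vehicle replicate 1.

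Lrp6, the co-receptor that is phosphorylated on ligand binding, had values of 10.04, 10.01, 10.04 and 9.92 on the NAC arrays, against 10.17, 10.06 and 10.04 on the vehicle arrays. The groups did not overlap but met within the second decimal. The log2 fold change of Lrp6 was -0.09 (SE 0.05, limma p of 0.105 unadjusted and 0.827 adjusted), and -0.05 without vehicle replicate 1, the high one. Its close relative Lrp5 had values of 9.71, 9.72, 9.71 and 9.73 with NAC, against 9.84, 9.74 and 9.59 with vehicle. The 4 NAC arrays lay inside the vehicle range, and the interval of the Lrp5 log2 fold change was -0.14 to 0.13. Its sign turned on quantile normalizing again, with array weights and without vehicle replicate 1 or 2.

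Of the 9 secreted inhibitors, 4 had a higher mean with NAC and 5 a lower one. Their log2 fold changes ranged from -0.13 to 0.05 around a median of -0.01; after quantile normalizing again 3 were higher and 6 lower. Without NAC replicate 3, the highest array in 3 of the 9, the split was also 3 and 6 and the median was -0.06. The split was 6 higher and 3 lower without NAC replicate 1 (median 0.0067), and 5 higher and 4 lower without NAC replicate 2 (median 0.0016). SFRP proteins and Wif1 bind the ligands outside the cell, whereas Dkk1, Dkk2 and Dkk4 bind LRP5/6. Wif1 had values of 8.23, 8.36, 8.52 and 8.30 on the NAC arrays, against 8.53, 8.49 and 8.43 on the vehicle arrays. NAC replicate 3 lay among the vehicle arrays, while the other NAC arrays lay below them. The Wif1 log2 fold change was -0.13 (SE 0.07, limma p of 0.102 unadjusted and 0.827 adjusted) over all arrays, and -0.19 without NAC replicate 3, with an unadjusted limma p of 0.0087. With any other single array left out the unadjusted limma p of Wif1 was over 0.05, reaching 0.245.

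Dkk2 had values of 7.01, 6.92, 6.95 and 7.01 with NAC, against 7.19, 7.01 and 7.02 with vehicle, a log2 fold change of -0.10 (SE 0.05, limma p of 0.101 unadjusted and 0.827 adjusted). Vehicle replicate 1 was the high one, and without it the Dkk2 log2 fold change was -0.04. Sfrp5 had values of 6.18, 6.13, 6.25 and 6.18 with NAC, against 6.12, 6.18 and 6.18 with vehicle, a log2 fold change of 0.03 that was 0.0043 without NAC replicate 3 and whose sign turned on quantile normalizing again. Dkk3, a divergent family member not known to bind LRP5/6 like the others, varied most among the inhibitors through NAC replicate 2. It had values of 6.86, 6.43, 6.85 and 6.80 with NAC, against 6.84, 6.69 and 6.78 with vehicle, and its log2 fold change was 0.06 without that array, -0.08 without NAC replicate 3 and -0.04 over all arrays.

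Axin2 is both a scaffold of the beta-catenin destruction complex and a target of beta-catenin, and is widely used as a readout of the canonical branch. It had values of 8.86, 8.79, 8.87 and 8.83 on the NAC arrays, against 9.005, 8.83 and 8.66 on the vehicle arrays. The 4 NAC arrays lay inside the vehicle range. Axin2 averaged 8.84 ± 0.04 with NAC (SD, n = 4) and 8.83 ± 0.17 with vehicle (SD, n = 3), a log2 fold change of 0.01 (SE 0.08). The interval of -0.18 to 0.19 bounds the difference on either side, and its sign turned when single arrays were left out, NAC replicate 3 among them (-0.0035).

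The study listed 6 of the members, Wnt2b, Wnt4, Wnt6, Wnt8a, Fzd4 and Fzd10, among genes that led its gene set results. That list was drawn from these same arrays, and its direction is not independent evidence. All 6 had a higher mean with NAC, and their median was 0.11 (log2) with and without NAC replicate 3. Of the other 35 members, 12 had a higher and 23 a lower mean, and their median was -0.01, or -0.04 without NAC replicate 3. None of the 35 was higher at an unadjusted limma p under 0.05. The 6 taken out were listed for being higher on these arrays and include both members higher at that p, Wnt2b and Fzd4. The lean of the remaining 35 is therefore not independent evidence either.

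Across the members the arrays differed within the groups. The highest value fell on vehicle replicate 1 in 13 of 41 members (31.7%), on NAC replicate 4 in 9 and on NAC replicate 3 in 8. Over all genes the highest value fell on vehicle replicate 1 in 18.3%, on NAC replicate 4 in 19.3% and on NAC replicate 3 in 14.8%. Members highest on vehicle replicate 1 included 6 of 10 receptors (Fzd1, Fzd2, Fzd3, Fzd6, Fzd7 and Fzd8), both co-receptors, Wnt5a, Wnt1, Dkk2, Wif1 and Axin2. The mean deviation of the 10 receptors from their own means was 0.03, -0.05, 0.00 and -0.03 on the NAC arrays, against 0.08, -0.05 and 0.01 on the vehicle arrays. Of the marker lists, that of the basal epithelium deviated by 0.34, -0.23, 0.14 and -0.17 on the NAC arrays, against 0.09, -0.22 and 0.04 on the vehicle arrays. Replicate 2 was low in both groups for receptors and basal markers alike. It lay below the list mean in both groups also for the fibroblast, endothelium and immune lists. In the immune list it was the lowest array of each group, at -0.15 with NAC and -0.18 with vehicle. The adipocyte, skeletal muscle and lung epithelium lists lay below their means on every array but NAC replicate 3. Those lists therefore do not bear on replicate 2. Replicate 2 was not below the list mean in both groups for the luminal, smooth muscle, nerve and glia, seminal vesicle and urothelium lists. A low replicate 2 was therefore not particular to receptors and basal markers, as the immune list shared it. This rests on 7 arrays and is a description, and the part of the basal share in the receptor values was not tested. The marker list that differed most between the groups was that of the seminal vesicle, a gland that adjoins the prostate: its 6 genes were all lower with NAC, around a median of -0.74 (log2), 3 of them at an unadjusted limma p under 0.05 and 3 with groups apart. They averaged 8.95, 10.16, 9.65 and 10.51 on the NAC arrays, against 10.28, 10.59 and 10.57 on the vehicle arrays, and their part in the members' values was not tested.

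**Figure D3:**
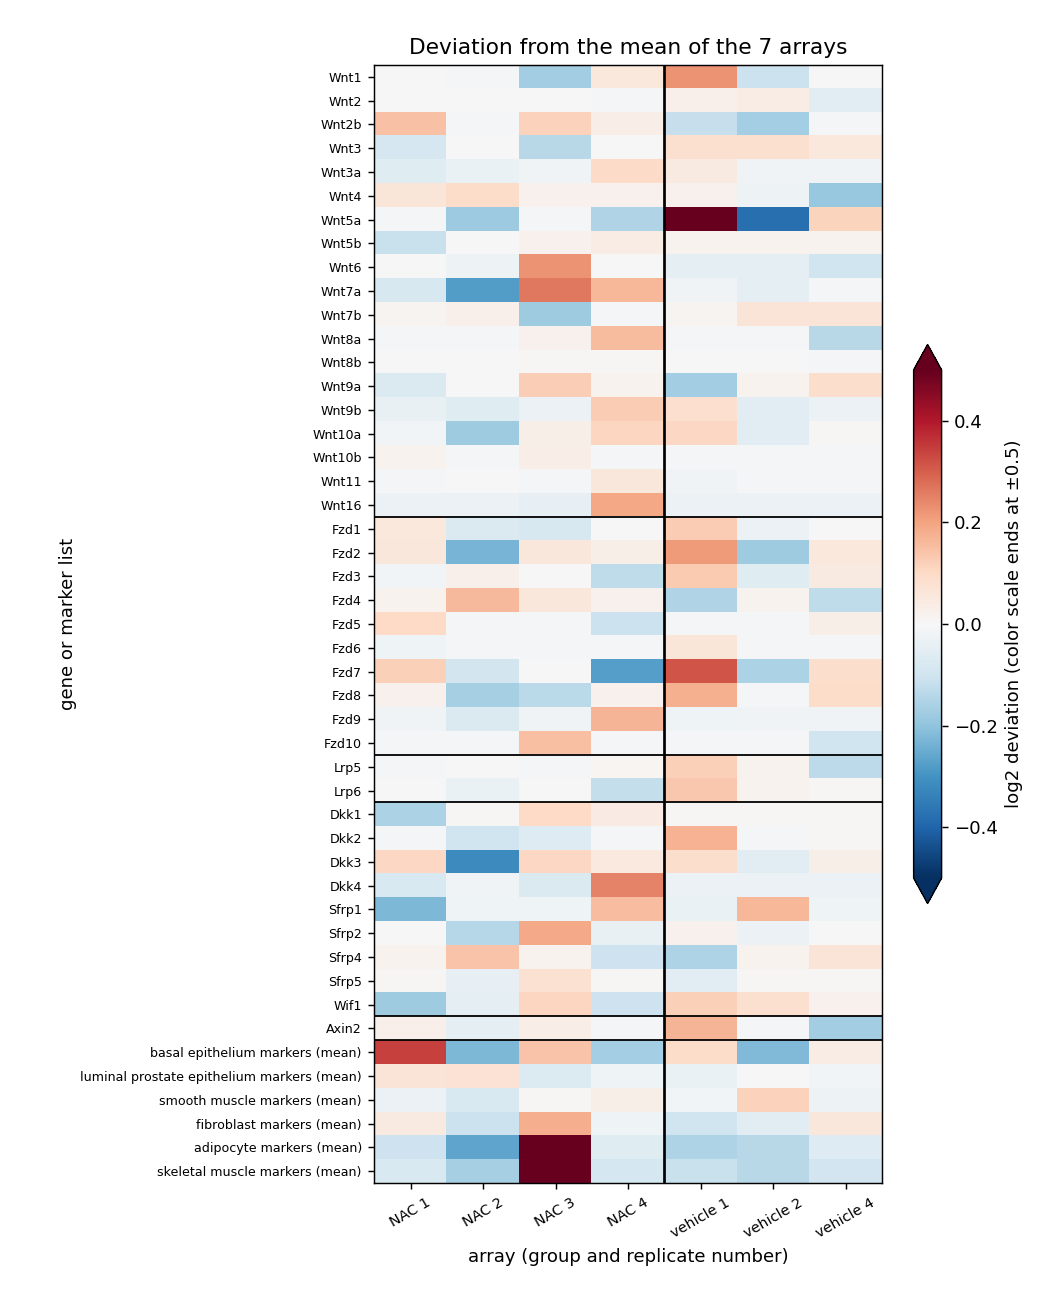
Deviation in log2 units of each of the 41 genes from its own mean over the 7 arrays. NAC arrays are to the left of the line and vehicle arrays to the right. The lowest rows give the mean deviation of the basal, luminal, smooth muscle, fibroblast, adipocyte and skeletal muscle marker lists. Vehicle replicate 1 is the highest array in 13 of 41 genes, and NAC replicate 3 is high in the adipocyte and skeletal muscle lists.

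Outside the members, 81 of 84 listed Wnt pathway genes were measured, and 42 were higher and 39 lower with NAC. At an unadjusted limma p under 0.05, 1 was higher (Mmp7) and 5 were lower (Tnfrsf19, Nkd1, Tspan12, Fuz and Znrf3), against 1.89% and 2.53% of all genes in these directions, and none passed an adjusted p of 0.05. In this list all NAC arrays lay above all vehicle arrays in 2 genes and below them in 2, against 1.29% and 2.18% of all genes. Ligand secretion and R-spondin genes numbered 5 higher and 6 lower, the destruction complex and Dishevelled genes 5 higher and 10 lower, TCF/LEF and beta-catenin partners 6 higher and 7 lower, planar cell polarity genes 7 higher and 5 lower, and other receptors and modulators 10 higher and 6 lower. Their medians lay between -0.04 and 0.02.

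Beta-catenin target genes were split as 10 higher and 7 lower of 17 measured, around a median of 0.00, or 0.04 without NAC replicate 3. Mmp7, the epithelial protease matrilysin, had values of 12.02, 11.50, 12.03 and 11.62 on the NAC arrays, against 11.48, 11.30 and 11.17 on the vehicle arrays. The groups did not overlap, with a gap of 0.02 between NAC replicate 2 and vehicle replicate 1. The Mmp7 log2 fold change was 0.47 (SE 0.15), with a limma p of 0.0186 unadjusted and 0.827 adjusted, and without NAC replicate 3 it was 0.395. Tnfrsf19, a receptor of the tumor necrosis factor family also called Troy, had values of 9.64, 9.57, 9.67 and 9.59 with NAC, against 9.86, 9.73 and 9.78 with vehicle. Every NAC array lay below every vehicle array. The Tnfrsf19 log2 fold change was -0.17 (SE 0.04), with a limma p of 0.0059 unadjusted and 0.827 adjusted, and the unadjusted p lay between 0.0055 and 0.0185 with each array left out in turn. For Mmp7 the unadjusted limma p was 0.0546 without vehicle replicate 2 and 0.073 without vehicle replicate 4. Nkd1, a feedback inhibitor that binds Dishevelled, had values of 9.36, 9.22, 9.36 and 9.19 with NAC, against 9.48, 9.36 and 9.58 with vehicle (log2 fold change -0.20, SE 0.07), and its unadjusted p reached 0.104 without vehicle replicate 4. Lgr5, given below and also in this list, was lower with NAC (log2 fold change -0.25, unadjusted limma p of 0.055). Targets of the same pathway thus stood on both sides of 0, with Axin2 near it.

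At the membrane Znrf3, the ubiquitin ligase that removes Frizzled receptors, had values of 9.76, 9.71, 9.53 and 9.76 with NAC, against 9.84, 9.87 and 9.82 with vehicle. The groups did not overlap, and NAC replicate 3 was the lowest (log2 fold change -0.15, SE 0.06, limma p of 0.0479 unadjusted and 0.827 adjusted). Without that array the Znrf3 log2 fold change was -0.10. Lgr5, an R-spondin receptor of stem cells, had values of 7.84, 7.87, 7.54 and 7.54 with NAC, against 7.93, 7.84 and 8.05 with vehicle (log2 fold change -0.25, SE 0.11, or -0.19 without NAC replicate 3). Gpc3, a glypican that holds ligands at the cell surface, had values of 7.11, 7.08, 7.57 and 7.11 with NAC, against 6.99, 6.97 and 6.90 with vehicle. Every NAC array of Gpc3 lay above every vehicle array, with a log2 fold change of 0.27 (SE 0.12) over all arrays and 0.15 without NAC replicate 3, where the unadjusted limma p was 0.0068. With any other single array left out the unadjusted limma p of Gpc3 was over 0.05, reaching 0.1685. Tspan12, the partner of Fzd4 in Norrin signaling, had values of 9.49, 9.49, 9.33 and 9.35 with NAC, against 9.49, 9.56 and 9.68 with vehicle (log2 fold change -0.16, SE 0.06). Fuz, a planar polarity and cilium protein, had values of 8.27, 8.07, 8.23 and 8.16 with NAC, against 8.50, 8.30 and 8.27 with vehicle (log2 fold change -0.17, SE 0.07). The unadjusted limma p was over 0.05 without NAC replicate 3 for Tspan12 (0.0972) and Fuz (0.0626), and the highest p with 1 array left out was 0.147 for Tspan12, 0.152 for Fuz and 0.124 for Znrf3.

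Inside the cell Ctnnbip1, which keeps beta-catenin from TCF factors, had values of 7.25, 7.03, 6.98 and 7.14 with NAC, against 6.90, 7.04 and 6.92 with vehicle (log2 fold change 0.14, SE 0.07). Pygo2, a chromatin-binding partner of beta-catenin, had values of 7.79, 7.82, 7.75 and 7.79 with NAC, against 7.92, 7.82 and 7.84 with vehicle (log2 fold change -0.08, SE 0.04). Vehicle replicate 2 lay inside or at the edge of the NAC range in both. The destruction complex scaffolds Apc and Apc2 had log2 fold changes of -0.07 (SE 0.05) and -0.11 (SE 0.08), and the polarity cadherin Celsr3 one of 0.08 (SE 0.07), with overlapping groups in each. Without NAC replicate 3 the log2 fold change was -0.04 for Apc, -0.16 for Apc2 and 0.18 for Ctnnbip1, Ctnnbip1 with an unadjusted limma p of 0.0441. With any other single array left out the unadjusted limma p of Ctnnbip1 was over 0.05, reaching 0.237.

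**Figure D4:**
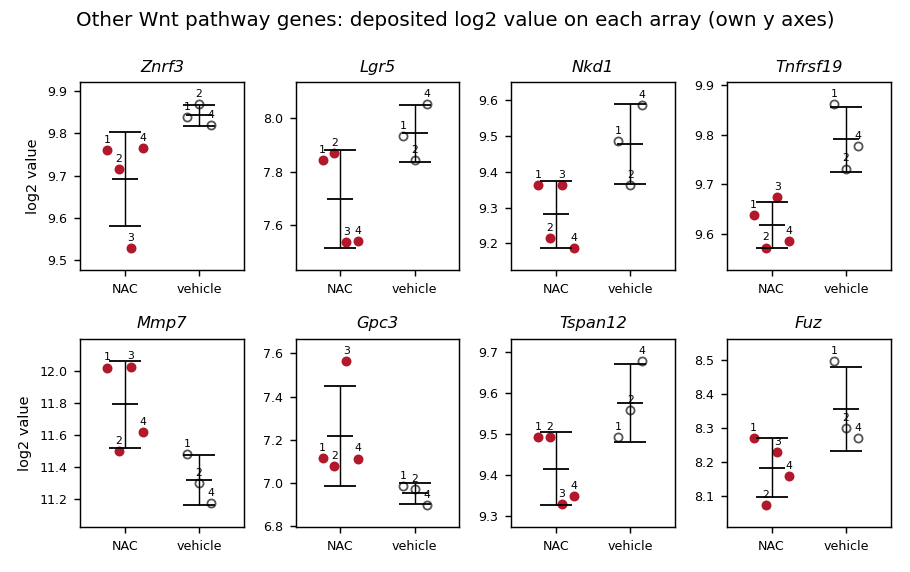
Log2 value of described Wnt pathway genes outside the 41 on each array, NAC left and vehicle right in each panel, with points for mice and a line for the group mean with its SD. NAC arrays lie above vehicle arrays in Mmp7 and Gpc3 and below them in Tnfrsf19 and Znrf3.

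The bases upstream of the start were read for the members with an unadjusted p under 0.05 and for Axin2 and Fzd7, to show the promoters that the described values concern. They are the 250 bases before each start, from RefSeq with build GRCm38.p6, in 5′ to 3′ order of the gene, and capitals mark a match to the TCF/LEF core CTTTGNT on either strand.
Wnt2b, chr3:104961710-104961959, minus strand: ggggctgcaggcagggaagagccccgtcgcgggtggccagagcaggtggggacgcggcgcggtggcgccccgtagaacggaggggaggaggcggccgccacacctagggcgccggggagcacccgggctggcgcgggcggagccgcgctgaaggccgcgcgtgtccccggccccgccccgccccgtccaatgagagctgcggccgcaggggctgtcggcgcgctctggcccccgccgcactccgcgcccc
Wnt3, chr11:103773925-103774174, plus strand: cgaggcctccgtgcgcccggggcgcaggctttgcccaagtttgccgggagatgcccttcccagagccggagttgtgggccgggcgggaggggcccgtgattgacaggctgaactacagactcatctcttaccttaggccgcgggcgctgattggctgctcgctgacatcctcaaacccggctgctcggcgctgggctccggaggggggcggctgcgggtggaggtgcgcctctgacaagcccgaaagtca
Fzd4, chr7:89404116-89404365, plus strand: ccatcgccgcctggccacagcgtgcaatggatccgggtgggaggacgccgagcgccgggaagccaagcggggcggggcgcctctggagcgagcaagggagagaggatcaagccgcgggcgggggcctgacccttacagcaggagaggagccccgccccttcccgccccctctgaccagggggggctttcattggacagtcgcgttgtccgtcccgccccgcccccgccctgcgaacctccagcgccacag
Fzd7, chr1:59481897-59482146, plus strand: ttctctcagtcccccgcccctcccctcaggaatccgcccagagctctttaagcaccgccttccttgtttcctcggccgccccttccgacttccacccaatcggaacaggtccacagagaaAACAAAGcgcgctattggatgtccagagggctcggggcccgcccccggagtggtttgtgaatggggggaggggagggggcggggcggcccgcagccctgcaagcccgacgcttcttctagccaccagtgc
Axin2, chr11:108920099-108920348, plus strand: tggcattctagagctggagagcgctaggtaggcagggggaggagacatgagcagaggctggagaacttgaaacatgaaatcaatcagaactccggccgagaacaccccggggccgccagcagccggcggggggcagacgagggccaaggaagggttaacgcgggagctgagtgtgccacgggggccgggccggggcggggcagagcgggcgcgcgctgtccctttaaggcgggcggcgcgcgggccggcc
The windows of Wnt2b, Wnt3, Fzd4 and Axin2 held no match, and that of Fzd7 held AACAAAG, the core read on the minus strand. The GC content was 80.8% in Wnt2b, 72.8% in Fzd4, 69.2% in Axin2, 68.0% in Wnt3 and 65.2% in Fzd7. The core was present in 6 of 30 windows of the 27 members that had one (Dkk1, Fzd7, Wnt1, Wnt11, Wnt5b and Wnt9b), against 16.0% of 32851 windows of all genes. A match is a run of letters and not a measured binding site.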

How the data were processed

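RNA from 1 prostate per array was measured on whole-transcript Affymetrix arrays (Mouse Gene 1.0 ST). Per the labels and the methods, the deposited log2 values are RMA values that the authors computed with affy in R (background correction, quantile normalization, median polish); no counts or depth underlie the values. Precision is set by the number of arrays. Of 20696 probe sets, 18950 name 1 gene, 678 several and 1068 none in the platform annotation. Of the probe sets naming 1 gene, that with the highest mean over the arrays stood for each gene (18938 genes). Symbols were checked against RefSeq (GRCm38.p6), in which the rule finds 41 genes, all of them measured.

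NAC was compared with vehicle by limma 3.58.1 under R 4.3.3 (a two-sided moderated test from lmFit with eBayes, no covariates, Benjamini-Hochberg over all genes, threshold 0.05), tested on simulated data. The p-values measure the spread between these mice. Values are given for Wnt2b, Wnt4, the members the study listed, members with an unadjusted p under 0.05 or with groups apart, the 3 with the smallest p and the most variable of each role, Lrp5, Lrp6, Wif1 and Axin2, and of each pathway list the 2 with the smallest p and those with groups apart; other genes are named where a count holds them. The members and lists were chosen with earlier results of these data known. Alternatives were trend and robust variances, array weights, subtracted medians, renewed quantile normalization, a filter at the 40th percentile, the median over probe sets, a replicate block and each array left out.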

Additional observations from a re-analysis of the deposited data

Results flagged for a closer look

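In 8 of 41 members 1 NAC array lay farther from the other NAC arrays than the 95% limit of Dixon's gap test for 4 arrays; chance gives this in about 1 in 20 groups, and 16 of 41 members hold at least 3 equal values. On NAC replicate 4 Wnt16 was highest at 6.52 (next array 6.30), Wnt11 was highest at 6.80 (next 6.74), Wnt9b was highest at 6.94 (next 6.78) and Wnt2 was lowest at 8.02 (next 8.03, with the other 3 equal). On NAC replicate 3 Wnt6 was highest at 6.71 (next 6.49) and Fzd10 was highest at 6.71 (next 6.54, with the other 3 equal). On NAC replicate 2 Fzd2 was lowest at 7.60 (next 7.87) and Dkk3 was lowest at 6.43 (next 6.80). The vehicle group has 3 arrays and was not examined this way.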

How the results depend on the processing

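Of 412 values of 30 single genes under alternatives, 401 kept their direction, 11 turned in 5 genes and 0 had an adjusted p under 0.05. Over the members, 2 were higher and 1 lower at an unadjusted limma p under 0.05, with 3 whose groups did not overlap. With array medians subtracted these counts were 1, 2 and 5, where 1.73% of all genes were higher and 2.67% lower. With genes under the 40th percentile left out (27 members stayed), they were 1, 0 and 1, where 1.23% of all genes kept were higher and 3.64% lower. Wnt2b and Wnt3 were among the members that this filter left out, as were Wnt6, Wnt8a and Fzd10. The median log2 fold change of the 27 members kept was -0.030, against -0.019 over all genes kept. With each array left out in turn, 0 to 1 genes of the whole table passed an adjusted p of 0.05 (Crip1, no member, without NAC replicate 4). The members' medians were then -0.023 to 0.011. Members numbered 1 to 2 higher, against 1.37% to 2.4% of all genes, and 0 to 2 lower, against 1.56% to 4.24%. Members without overlap numbered 3 to 8. Groups with fewer arrays overlap less often in any gene, and the share of all genes without overlap was not counted under the alternatives. Apart from the replicate block, given next, the other settings left these counts within 1.5 times.

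The labels tie no replicate number to a litter or batch, and deviations of same-numbered arrays correlated at 0.212, 0.286 and -0.0667 for replicates 1, 2 and 4. Those of unlike-numbered arrays correlated at -0.271 to 0.21. The numbers were therefore not taken as pairs, and whether replicates 1 and 2 are paired is undecided. With the replicate block, 1 member was higher (Fzd4), against 2.45% of all genes, and 2 were lower (Fzd8 and Wif1), against 2.6%. Axin2 then had a log2 fold change of -0.0035. Lrp5 turned to 0.0082 with array weights and 0.025 on quantile normalizing again, where Sfrp5 turned to -0.0037. With each array left out, Lrp5 ranged from -0.071 to 0.053, Axin2 from -0.079 to 0.094, Dkk3 from -0.076 to 0.064 and Wnt5a from -0.45 to 0.046. The cause of these turns was not tested. No detection call was used here, and which probe sets lie near background was not tested.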
